A study of Mus musculus with 12 samples.

Results

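The genes described here are 10 subunits of the CCR4-NOT deadenylase complex, Cnot1, Cnot2, Cnot3, Cnot4, Cnot6, Cnot6l, Cnot7, Cnot8, Cnot10 and Cnot11, chosen by name, out of 14988 genes with an N6-methyladenosine (m6A) peak called in mouse lung in at least 1 of 2 lists, for allergic (OVA) and control (PBS) animals. A peak was taken as theirs when the list named one of the 10 as its annotated gene, or when the peak caller had made the peak on that gene ("called on" it). By this rule 22 of the 27292 peaks of the OVA list and 15 of the 26102 peaks of the PBS list belonged to the subunit genes.

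CCR4-NOT shortens the poly(A) tails of messenger RNAs in the cytoplasm, the step that usually starts their decay. Its scaffold CNOT1 carries a nuclease module, a NOT module and an N-terminal module, and adaptor proteins bring it to selected mRNAs. One adaptor is YTHDF2, a reader of m6A, and another is tristetraprolin (Zfp36), which binds short-lived cytokine mRNAs.

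Lungs came from female BALB/c mice aged 6 to 8 weeks. OVA mice were injected with ovalbumin plus an aluminum hydroxide adjuvant on days 0 and 7 and breathed 3% ovalbumin aerosol for 30 min a day from day 14 to day 20. PBS mice received phosphate-buffered saline alone at each step, without the adjuvant, so the effects of ovalbumin and adjuvant cannot be told apart. Mice of both groups also had methacholine bronchial provocation on day 21, before bronchoalveolar lavage fluid and lung tissue were taken. For 3 mice of each group, ribosomal-depleted lung RNA was fragmented and either sequenced directly (input) or after immunoprecipitation with an m6A antibody (IP), which made 6 IP and 6 input libraries.

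The data used here are 1 deposited peak list per group, made over its 3 mice. These lists carry no value for a single mouse and no read depth. They therefore allow no spread between animals, interval or test, and all comparisons between OVA and PBS are descriptions of these lists. For each peak the lists give a fold enrichment, which is the signal in IP over that in input, and a false discovery rate (FDR) for it. As a check of the tissue, 16 of 20 lung and immune marker genes had an OVA peak and 14 had a PBS peak. Sftpc of alveolar type 2 cells and Epx, Prg2 and Siglecf of eosinophils had none in either list, whereas Sftpb, Sftpa1 and Lamp3 of the former and Ccr3 of the latter had peaks in both. Cyp2f2 of club cells and Clca1 of goblet cells had a peak in the OVA list only, while Scgb1a1 and Muc5ac of the same cell types had peaks in both. A peak shows that RNA of a gene was sequenced, but a missing peak does not show that the RNA was absent.

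m6A peaks on the subunit genes were present in both groups, and most were weak for these data. For OVA, the median fold enrichment of these peaks came to 2.95, against 5.59 over the whole list. For PBS the median was 3.70, against 5.44 over the whole list. Of the subunit peaks, 18 of 22 lay under the OVA median and 11 of 15 under the PBS one. The highest values belonged to Cnot6 and Cnot4 in the OVA list, at 13.0 and 9.97. Every one of the subunit peaks had an FDR under 0.05, the weakest being a Cnot4 peak of the PBS list with a log10 FDR of -1.88.

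All 10 genes had an OVA peak and 9 of them a PBS peak as well, Cnot1 being the exception. With only peaks called on the genes themselves, the PBS list kept 8 of them, and both Cnot1 and Cnot3 were found in the OVA list alone. That is 2 of 10, where 11.7% of the 13906 genes with a called OVA peak had no called PBS peak.

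Peaks were counted as shared when they had at least 1 exonic base in common with any peak of the other list. Of the 22 OVA peaks, 14 were shared with the PBS list and 8 were not, while 19.4% of all OVA peaks shared no base with a PBS peak. Of the 15 PBS peaks, 14 were shared with the OVA list and 1 was not, against 14.5% over all PBS peaks. Unshared OVA peaks of the subunit genes were short, with a median of 91.0 exonic bp against 240 bp for the shared ones. Over the whole OVA list the unshared peaks were short too, with a median of 121 bp against 390 bp for the shared ones. The median fold enrichment of all unshared OVA peaks was 2.87, against 6.50 for shared ones. For the subunit genes these medians were nearly equal, at 2.94 and 3.13. Among all OVA peaks under the list's median fold enrichment, 28.7% were unshared, beside 7 of 18 for the subunit genes. Whether weak peaks account for the subunits' count was not tested.

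When only peaks with a fold enrichment of at least 2 were kept in both lists, 9 of 15 in OVA and 9 of 11 in PBS were shared, and 5 genes had a peak in both lists. At that limit 80.5% of all OVA and 85.6% of all PBS peaks were shared. The share of all genes with a peak in both lists was not computed there, so the gene count has no background. The same start and end in both lists was found for 3 of the 14 subunit pairs, and for 2801 of all 26084 pairs. Peaks assigned to a protein-coding transcript numbered 7 of 22 in OVA (31.8%, against 41.8% of all peaks) and 6 of 15 in PBS (40.0%, against 42.5%), with 3 genes in both lists. For this filter, too, no share of all genes was computed.

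**Figure D1:**
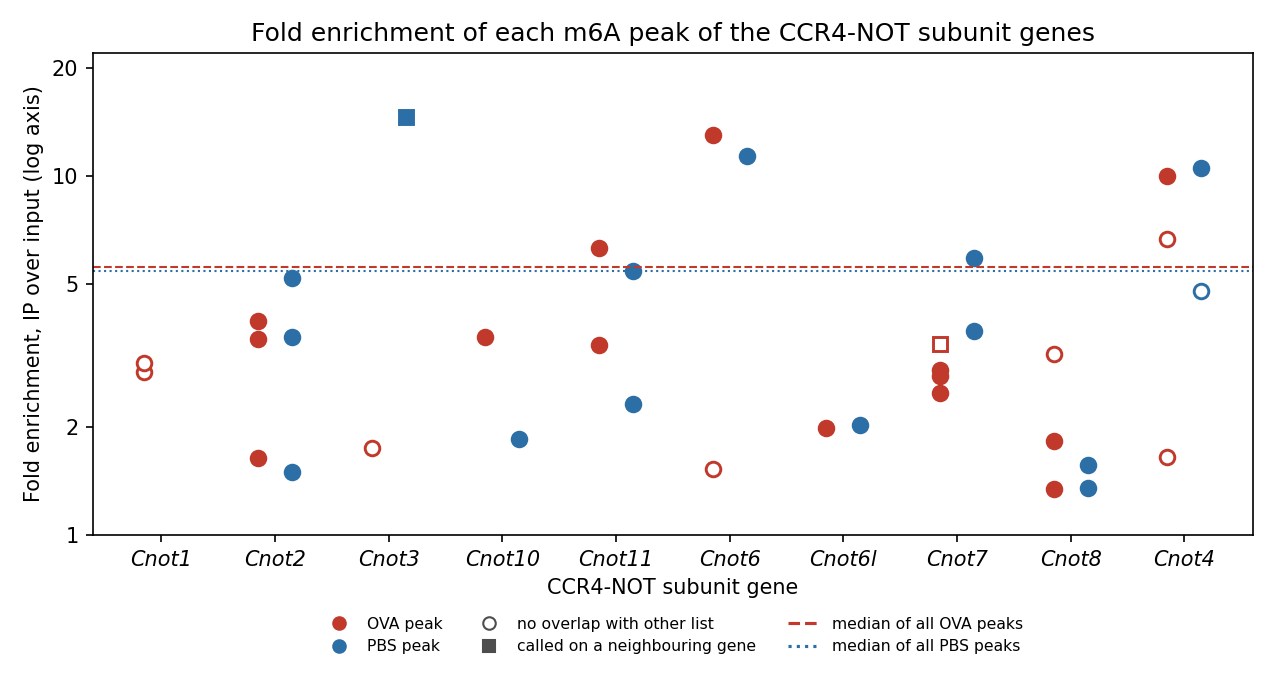
Fold enrichment of IP over input (vertical log axis) of every peak of the 10 subunit genes (horizontal axis), in red for the OVA list and in blue for the PBS list. Open symbols have no overlapping peak in the other list, squares were called on a neighbouring gene, and the lines give the medians over all peaks, 5.59 for OVA and 5.44 for PBS.

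The region labels placed 13 of 22 OVA peaks (59.1%) and 12 of 15 PBS ones (80.0%) in 3' untranslated regions (UTRs), against 52.7% of all peaks in each list. Another 6 OVA and 2 PBS peaks were labelled as other exons. Labelled as 5' UTR were 3 OVA peaks, on Cnot1, Cnot6 and Cnot7, and 1 PBS peak, on Cnot6. These labels follow whichever transcript was assigned to a peak, which can differ between overlapping peaks of the 2 lists. That transcript can also belong to another gene, so the shares need not describe the subunit mRNAs. One Cnot1 peak labelled 3' UTR was annotated to Gm45762 and lay 39.1% along the RefSeq gene of Cnot1. The Cnot7 peak labelled 5' UTR lay 35.7% along its gene, by the middle of its longest block. Coordinates below are in mouse build GRCm38, on which the lists' positions fell.

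Cnot1 (ENSMUSG00000036550), the scaffold on which all other modules assemble, had 2 OVA peaks and no PBS peak. The first, at chr8:95788705-95807464, was labelled 5' UTR and joined 2 exonic blocks of 199 and 132 bp, with a fold enrichment of 3.02. The second, a 61 bp peak at chr8:95773179-95773240 in the middle of the gene, had a value of 2.85 and was annotated to the unconfirmed transcript Gm45762. Both were modest for the OVA list, where 26.6% and 24.2% of all peaks had values at or below theirs. Near the first, the PBS list held a peak called on 4930513N10Rik, a gene annotated on the opposite strand, 207 bp away. That PBS peak lay 698 bp from the start of its assigned transcript. The 132 bp block of the Cnot1 peak thus lies within the span of this opposite-strand transcript. The sources used here do not state whether peaks were called by strand.

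In the NOT module, which binds the far end of the scaffold and is needed to keep the complex stable, Cnot2 (ENSMUSG00000020166) had 3 peaks in each list. All of them lay at the very end of the gene, with the middle of the longest block between 98.9% and 99.8% of the way along the RefSeq gene. In the OVA list the values were 3.95 at chr10:116485190-116485521, 3.52 at chr10:116485819-116486000 and 1.64 at chr10:116486119-116492305. The PBS list had 5.21, 3.56 and 1.5 at the matching places. Each peak of one list thus had its counterpart in the other, and the order of strength was the same. Of the 6 peaks, 5 were annotated to the neighbour Kcnmb4 although they were called on Cnot2 and lay at least 11.6 kb from the start of the Kcnmb4 transcript.

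Cnot3 (ENSMUSG00000035632), the partner of Cnot2 in this module, had a single peak of its own, in the OVA list. It covered 3 exonic blocks at chr7:3651808-3653161 with a fold enrichment of 1.75, on a transcript classed as a target of nonsense-mediated decay. The PBS peak that carried the name Cnot3, at chr7:3639873-3641560, was called on the splicing factor gene Prpf31 and lay 3.71 kb upstream of the Cnot3 transcript. Its fold enrichment was 14.6, and the OVA list had an overlapping Prpf31 peak of 20.7 there. The high PBS value under the name Cnot3 was therefore a value of the neighbouring gene.

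The N-terminal module of Cnot10 and Cnot11, which docks on the start of the scaffold, had its peaks in both lists. Cnot11 (ENSMUSG00000003135) had 2 peaks in its 3' UTR. The stronger, at chr1:39546498-39546799, had the same coordinates in both lists, with fold enrichments of 6.29 in OVA and 5.43 in PBS. The weaker began at chr1:39545120 in both lists and was 30 bp longer in OVA, with 3.39 against 2.31. Cnot10 (ENSMUSG00000056167) had 1 peak per list, starting at chr9:114598300 and annotated to the small nuclear RNA gene Gm23232. It measured 301 bp with a value of 3.55 in OVA and 151 bp with 1.85 in PBS. All 3 pairs of this module were higher in the OVA list, by ratios of 1.16 to 1.92, and most overlapping pairs of the whole lists were higher in OVA too, with a median ratio of 1.10.

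Cnot6 and Cnot6l encode the Ccr4-type nucleases, which are alternative members of the complex. Cnot6 (ENSMUSG00000020362) had the strongest peak called on any subunit gene, in its 5' UTR at chr11:49712483-49712723, with 13.0 in the OVA list. The PBS peak began at the same base, ended 30 bp earlier and had a value of 11.4. These values were at or above those of 79.9% of OVA and 77.1% of PBS peaks. A further OVA peak on Cnot6, of 61 exonic bp at chr11:49677463-49679942, was annotated to the pseudogene Gm12191, had a fold enrichment of 1.53 and no PBS counterpart. Cnot6l (ENSMUSG00000034724) had 1 peak per list, at chr5:96077107-96080127 in OVA, with 1.99 in OVA and 2.02 in PBS.

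The base sequence of the stretch that only the OVA peak of Cnot6 covered is shown because it is the whole difference in position between the 2 peaks. It comes from the RefSeq promoter window of Cnot6 (GRCm38.p6) and covers chr11:49712694-49712723 on the minus strand. The stretch starts 1 base before the transcript start used for that window, which is not the only annotated start. The PBS peak lay 227 bp from the start of the transcript assigned to it, so that start is further upstream. The positions of the stretch follow the stated peak ends. The exonic blocks as listed end 1 bp earlier, at 49712722 in OVA and 49712692 in PBS. By the blocks, the stretch shown is thus shifted by 1 base. Capitals mark GGAC, a core in which the m6A writer complex often methylates the adenosine, searched on the transcribed strand only.

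Cnot6: gggagggGGACggcggccgccgccatgatg

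The core was present in the same stretch of 11.0% of 32851 promoter windows of all genes. It was followed by G, and neither GGACA nor GGACC nor GGACT was found, of which at least 1 occurred in 8.88% of these windows. A match of letters is no evidence of a methylated base, and peak ends move in steps of about 30 bp. Promoter windows were found for 8 of the 10 genes, and none for Cnot1 and Cnot7.

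Cnot7 and Cnot8 encode the Caf1-type nucleases, which bind the scaffold directly and hold the Ccr4-type nucleases in place. Cnot7 (ENSMUSG00000031601) had 3 peaks of its own in OVA and 2 in PBS. At its 3' end, both lists had a peak starting at chr8:40492569, with a fold enrichment of 2.77 in OVA and 5.92 in PBS. This was the 1 subunit pair past a 2-fold difference, 2.14-fold higher in the PBS list. Further upstream, the PBS list had 1 peak of 3.70 at chr8:40500831-40510110 that joined 3 exonic blocks. The OVA list had 2 separate peaks over the same exons, with 2.48 at chr8:40500831-40501071 and 2.88 at chr8:40507405-40510169. Each of the 3 OVA values on Cnot7 was thus under that of the PBS peak it overlapped. For 2 of them that was the 1 joined PBS peak, whose value covers all 3 of its blocks. Another OVA peak named Cnot7, at chr8:40551602-40551812 with 3.41, was called on Mtmr7, 36.0 kb upstream, and had no PBS counterpart.

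**Figure D2:**
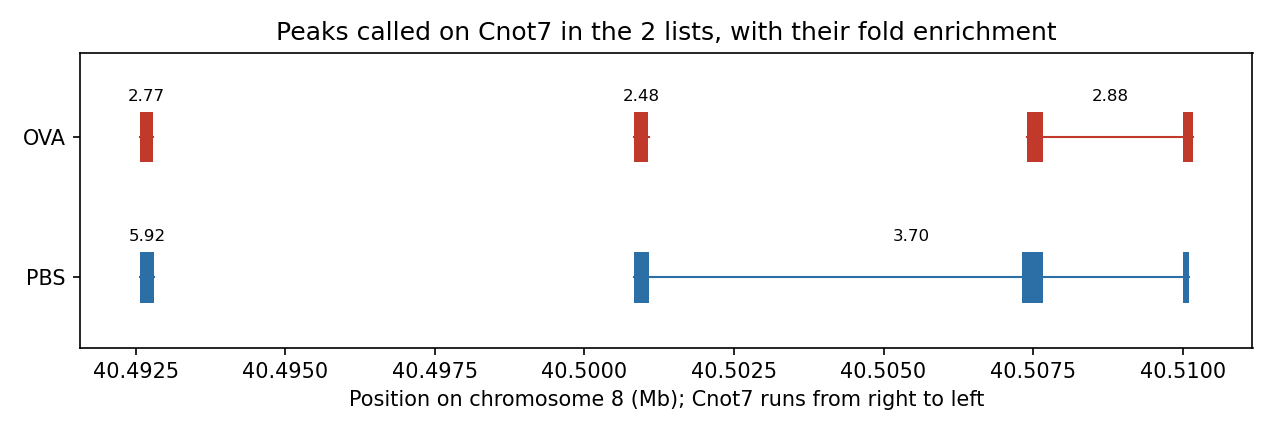
Map of the peaks called on Cnot7 on chromosome 8 (horizontal axis in Mb, gene running from right to left) in the OVA list (upper row) and the PBS list (lower row). Boxes are exonic blocks, lines join the blocks of 1 peak, the numbers are fold enrichments, and the 3' peak is at the left.

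Cnot8 (ENSMUSG00000020515), the paralogue of Cnot7, had the lowest value of the subunit genes in each list. The 61 bp peak at chr11:58117485-58117546 was identical in both lists, with 1.83 in OVA and 1.57 in PBS. Next to it, a peak ending at chr11:58117815 had 1.34 in OVA and 1.35 in PBS, values that fewer than 1 in 100 peaks of either list fell under. A last peak of 91 bp, at chr11:58118473-58118564 with 3.20, was listed for OVA only. The nearest PBS peak was the second Cnot8 peak, 658 bp away.

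Cnot4 (ENSMUSG00000038784) encodes a ubiquitin ligase that associates with the complex without being a stable part of it in mammals. Its main peak, at chr6:35046053-35052626, joined 3 exonic blocks of 305, 498 and 158 bp and had the same coordinates in both lists. The fold enrichment was 9.97 in OVA and 10.5 in PBS, so this long peak was nearly equal in the 2 lists. Toward the 3' end the lists differed. OVA had peaks of 1.65 at chr6:35023204-35023295 and 6.67 at chr6:35023684-35023745, and PBS had 1 of 4.77 at chr6:35022094-35022155. None of these short peaks overlapped another, and the PBS peak lay 1049 bp from the closer OVA peak.

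Over the 14 overlapping pairs of subunit peaks, the fold enrichment was higher in the OVA list in 6 and lower in 8, and 2 of these 8 share 1 PBS peak of Cnot7. Over all 26084 overlapping pairs it was higher in OVA in 15873 and lower in 10096. The median OVA to PBS ratio was 0.991, with a range from 0.468 to 1.92, against 1.10 over all pairs. No subunit pair was past 2-fold higher in OVA, against 10.5% of all pairs, and 1 of 14, the Cnot7 pair, was past 2-fold lower, against 7.15%. All the others stayed within 2-fold.

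**Figure D3:**
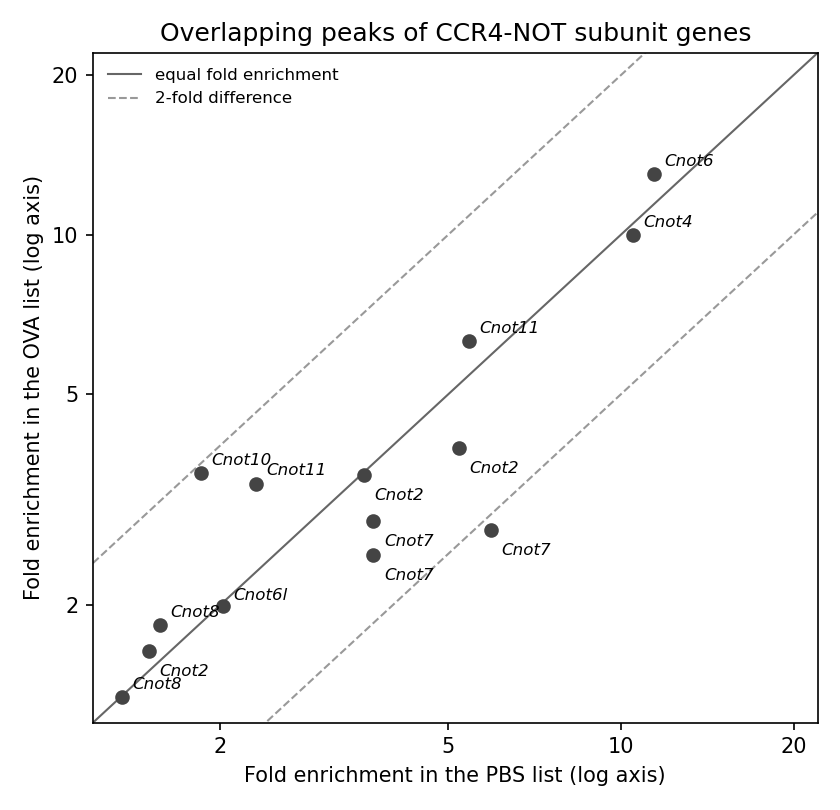
Fold enrichment of the 14 overlapping pairs of peaks of the subunit genes in the PBS list (horizontal log axis) and in the OVA list (vertical log axis), each point being 1 pair. The solid line marks equal values and the dashed lines a 2-fold difference, which only a Cnot7 pair passes.

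The other genes of the pathway came from a list of 34 genes. Of these, 30 had a peak in both lists, 1 in the OVA list only and 3 in neither. Their peaks were stronger than those of the subunits, with a median fold enrichment of 5.30 over 79 OVA peaks and 5.59 over 81 PBS peaks, close to the medians of the whole lists. Of their peaks, 89.9% in OVA and 87.7% in PBS were shared, against 80.6% and 85.5% of all peaks. Among 77 overlapping pairs of the 34 genes, 3 were past 2-fold higher in OVA (3.90%, against 10.5% of all pairs) and 4 past 2-fold lower (5.19%, against 7.15%). The remaining subunit Cnot9, which offers a binding surface for adaptors, had peaks of 4.19 and 2.38 called on it in OVA and of 5.33 and 1.72 in PBS. Another OVA peak under its name, of 6.33, was called on the neighbour Usp37, and the PBS list had an overlapping Usp37 peak of 19.2 there. That pair, at a ratio of 0.330, was past 2-fold lower in OVA. It was not among the 77, where both peaks belong to listed genes. The same OVA peak of 6.33 did enter the 77, set against the PBS Cnot9 peak of 5.33, at a ratio of 1.19.

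All 19 adaptor genes, whose proteins bring the complex to mRNAs, had peaks in both lists, with medians of 5.63 in OVA and 6.92 in PBS. The highest value of the pathway in both lists was that of a peak called on Zfp36l2, of the tristetraprolin family, and annotated to the antisense gene Gm36279, at chr17:84185216-84186653, with 69.3 in OVA and 64.6 in PBS. Tnrc6b, a partner of Argonaute in microRNA silencing, followed in OVA with 42.1 in an exon at chr15:80878984-80881203, where PBS had 20.6. Ythdf2, chosen for mention after its values were seen, had 1 long peak per list, with 17.4 in OVA and 25.8 in PBS. Zfp36, chosen in the same way, had 2 peaks per list, all under the adaptor medians. Their values were 4.25 and 2.25 in OVA and 3.84 and 1.90 in PBS. The adaptor medians thus lay above those of the subunit genes in both lists.

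Among the decapping and decay genes, 7 of 9 had peaks in both lists. Ddx6, the helicase that links deadenylation to decapping, had a peak of 30.2 in OVA and 28.7 in PBS labelled 5' UTR, from chr9:44604891. Dcp1a, a cofactor of the decapping enzyme, had 30.9 in PBS at chr14:30523262-30524220 and 29.8 in OVA. Edc4 and Patl1, which also promote decapping, had no peak in either list, and neither had the deadenylase gene Parn. Pabpc4, a poly(A)-binding protein, had peaks in the OVA list only, with 2.74 at chr4:123282930-123283081 and 1.44 at chr4:123291752-123291842.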

How the data were processed

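The authors used FASTP for trimming and HISAT2 for mapping to the Ensembl mouse genome, called peaks with exomePeak on IP against input and annotated them with ChIPseeker (HISAT2 and ChIPseeker are also named in the submitters' processing notes). How the 3 mice of a group were combined is not given in the sources used here. The deposited fold enrichment is a ratio of IP over input, and the deposited FDR is a score on the log10 scale. Depth per peak is unknown.

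Peaks were taken as listed and compared by their exonic blocks with Python 3.11.15, figures were drawn with matplotlib 3.10.9, and the overlap code was tested on simulated data. All 10 genes matched an ID in the table of gene names. For peaks called on a RefSeq gene (GRCm38.p6), 97.2% in OVA and 97.3% in PBS overlapped it. Members and gene lists were chosen with earlier results of these data known. Named are all members, the neighbours that share their peaks, pathway genes with a peak in 1 list or none, and the 3 strongest pathway peaks per list at an FDR under 0.05. Cnot9, Ythdf2 and Zfp36 were added outside this rule, after their values were seen. So were the genes given under Other observations that the rule does not cover. Alternatives varied gene assignment, FDR, fold enrichment, transcript class and overlap.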

Additional observations from a re-analysis of the deposited data

How the results depend on the processing

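No paired analysis was possible because the deposited lists give 1 value per group and none for each mouse. An FDR limit of 0.05 removed no subunit peak, so those 10 settings test nothing. Of 28 other alternatives for counts, 20 stayed within 1.5 times and 8 gave counts lower by more than 1.5 times. The median fold enrichment went from 2.95 to 2.88 or 3.41 in OVA and from 3.70 to 3.63 or 5.21 in PBS, with only called peaks or only peaks of at least 2-fold enrichment. With only peaks assigned to protein-coding transcripts, 7 OVA peaks (31.8%, against 41.8% of all) and 6 PBS peaks (40.0%, against 42.5%) remained in the counts. Under this filter 3 genes had a peak in both lists, and no share of all genes was computed. Asking for identical start and end left 3 of 22 OVA peaks shared (10.3% of all OVA peaks) and 3 of 15 PBS peaks (10.7% of all PBS peaks). With only peaks of at least 2-fold enrichment, 9 of 15 OVA peaks (80.5% of all OVA peaks) and 9 of 11 PBS peaks (85.6% of all PBS peaks) were shared. At this limit 5 genes had a peak in both lists, again with no share of all genes computed. Each of these settings counts fewer peaks by construction. Depth per peak is not in the lists, so an absent peak and an uncalled one cannot be told apart, and no fold enrichment has an error.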

Other observations

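Beside the Cnot1 peak of the OVA list, a peak called on 4930513N10Rik was listed in both groups. Its fold enrichment was 16.1 at chr8:95807611-95808091 in OVA and 5.11 at chr8:95807671-95807852 in PBS, a ratio of 3.15. The OVA peak began 147 bp from the end of the Cnot1 peak, whose 132 bp block lies within the span of the 4930513N10Rik transcript. This gene was looked up after the Cnot1 values were seen.

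The 7 pathway pairs past 2-fold were looked up after their values were seen. Lsm1, a subunit of the ring that binds shortened mRNA tails, had 5.75 in OVA and 15.9 in PBS in its 3' UTR. Pum2, a sequence-specific adaptor, had 5.11 in OVA and 13.0 in PBS at its 5' UTR. Tnrc6b was higher in OVA, by a ratio of 2.04. Of 2 neighbouring Tnrc6c peaks in OVA, the one of 3.59 overlaps the same PBS peak of 22.1 as the other, of 22.3. A Tnrc6a peak of 5.36 in OVA overlaps 2 PBS peaks, of 5.53 and 1.85. The 2 Zfp36l2 pairs past 2-fold, with ratios of 8.90 and 0.107, each set a peak called on Zfp36l2 against an overlapping weaker one called on AC132455.1.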
